A study of Mus musculus with 72 samples.

Results

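Changes in 2 methylation states of histone H3 lysine 27, the monomethylated (H3K27me1) and the dimethylated form (H3K27me2), were laid side by side along the mouse autosomes after chronic social defeat stress. Both had been mapped by CUT&RUN, where a nuclease tethered to an antibody frees the DNA next to the histones it binds, in tissue of the nucleus accumbens, the part of the striatum best known for reward. The members were all autosomal rows of the authors' 4 tables of differential regions (here called sites), 25864 of the 36113 rows deposited for the series. They comprised 12124 H3K27me1 and 2075 H3K27me2 sites for susceptible against control mice, and 7011 H3K27me1 and 4654 H3K27me2 sites for resilient against control mice. Each chromosome was divided into bins of 1 Mb from position 1. A site was counted in the bin of its midpoint, and its change was the log2 ratio of the 2 group averages, outcome over control. The comparison between the marks made by these bins was not used by the authors to call the sites, although the direction of each site was part of that call.

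All groups were adult male wildtype mice. Susceptible mice had been through chronic social defeat and fell in the group labelled susceptible, resilient mice had been through the same stress and fell in the group labelled resilient, and control mice were the cohort's controls. Each group had 4 libraries per mark, 24 in all, and susceptible and resilient mice were set against the same 4 control libraries of a mark. Because the comparisons share their controls, the 2 outcomes are given beside each other and no agreement between them is tested. The labels do not say that each library came from its own animal, so the p-values measure the spread between these libraries, which may be technical. In tissue of mixed cells, fewer cells carrying a mark and less of the mark per cell cannot be told apart. The tables list called regions only, so marker genes could not be used to check the tissue or its cell types.

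Lysine 27 of histone H3 can carry 1, 2 or 3 methyl groups. The Polycomb repressive complex PRC2 adds them, and demethylases such as Kdm6a and Kdm6b remove them. H3K27me1 is known for lying over the bodies of transcribed genes, H3K27me2 for covering wide stretches of intergenic and silent chromatin, and H3K27me3 for marking Polycomb-silenced promoters. The first 2 are therefore steps of 1 methylation series that are usually found in different territory.

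Few sites lay over promoters, and 3 promoters are printed to show the sequence under those that were called in both outcomes. They were chosen after their values were seen. RefSeq promoters run from 250 bases before to 50 after a gene's start (GRCm38.p6, the build of the files). H3K27me1 sites overlapped 76 of 31396 autosomal promoters in the susceptible table and 34 in the resilient table, and H3K27me2 sites overlapped 19 and 37. Of the H3K27me1 sites over promoters, 12 of 71 were higher in susceptible and 12 of 33 in resilient mice. Of the H3K27me2 sites over promoters, 9 of 16 and 11 of 31 were higher. CG pairs, which read the same on both strands, were in 94.8% of all promoters, with a median of 7 a promoter. Promoters under H3K27me1 sites held a median of 4 CG pairs in both outcomes and those under H3K27me2 sites a median of 2 in both. At least 10 CG pairs were in 43.95% of all promoters, in 13.2% and 23.5% of those under H3K27me1 sites (susceptible and resilient tables) and in 5.26% and 5.41% of those under H3K27me2 sites. The sequences are given on the gene's strand with CG in capitals. They are those of Znfx1, an RNA helicase of antiviral defence (chr2:167043446-167043745, minus strand), Sgk1, a kinase induced by glucocorticoids (chr10:21978422-21978721, plus strand), and Prl7d1, a placental prolactin-family hormone (chr13:27716687-27716986, minus strand).
Znfx1: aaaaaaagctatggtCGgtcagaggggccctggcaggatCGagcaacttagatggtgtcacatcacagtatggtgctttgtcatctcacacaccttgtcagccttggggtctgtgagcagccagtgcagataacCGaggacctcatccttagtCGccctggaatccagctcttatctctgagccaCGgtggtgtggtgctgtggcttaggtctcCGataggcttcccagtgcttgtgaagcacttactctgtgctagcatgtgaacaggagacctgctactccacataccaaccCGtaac
Sgk1: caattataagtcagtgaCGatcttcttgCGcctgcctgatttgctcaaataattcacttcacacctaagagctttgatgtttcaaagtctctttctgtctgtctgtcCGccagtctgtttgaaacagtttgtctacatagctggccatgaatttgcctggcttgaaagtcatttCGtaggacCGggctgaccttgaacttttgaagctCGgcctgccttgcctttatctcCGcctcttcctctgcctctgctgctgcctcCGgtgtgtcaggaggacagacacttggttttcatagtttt
Prl7d1: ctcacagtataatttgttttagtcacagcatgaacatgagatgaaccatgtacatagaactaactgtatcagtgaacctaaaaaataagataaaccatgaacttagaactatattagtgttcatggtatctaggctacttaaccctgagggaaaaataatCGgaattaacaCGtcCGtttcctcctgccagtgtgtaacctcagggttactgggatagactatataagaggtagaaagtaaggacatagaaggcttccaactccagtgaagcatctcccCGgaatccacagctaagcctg

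The H3K27me1 site over the Znfx1 promoter held 119, 111, 167 and 151 normalised reads in susceptible mice, against 199, 174, 284 and 184 in control mice. In the resilient table the site there held 125, 113, 136 and 100 normalised reads in resilient mice, against 165, 136, 218 and 139 in control mice. Each susceptible library was below each control library, while the highest resilient library reached the lowest control library to within a read. Over the Sgk1 promoter H3K27me1 was 77.0, 55.1, 60.5 and 66.6 normalised reads in susceptible mice and 91.0, 104, 98.1 and 79.9 in control mice, again without overlap. The resilient libraries held 63, 72.05, 70.6 and 60.7 there, all below the 92.4, 108, 96.0 and 74.5 of the control libraries. Both promoters lay in bins without any H3K27me2 site. H3K27me2 over the Prl7d1 promoter was higher, with 126, 131, 108 and 124 normalised reads in susceptible mice against 104, 71.9, 99.2 and 82.8 in control mice. Resilient mice had 122, 117, 120 and 85.5 there, against 94.0, 72.5, 87.8 and 72.9 in control mice, and 1 resilient library lay inside the control range. The Prl7d1 bin held 27 H3K27me2 sites and no H3K27me1 site in the resilient table. Other H3K27me2 promoter sites called in both outcomes went the other way. The log2 ratios were -0.19 and -0.39 at Duxf3 and -0.25 and -0.22 at Sprr2a2 (susceptible and resilient mice). These sites had been called on the same libraries. The share of all sites without overlap between the groups was not counted, here or for the single sites named below.

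Depth varied more between the libraries of H3K27me2. Per the file headers, mean depth in windows of 1000 bp was 20.6 to 30.4 reads for H3K27me1 and 10.6 to 40.6 reads for H3K27me2, and H3K27me2 control library 52 stood lowest. That library was the lowest of the 4 controls at 63.5% of the H3K27me2 sites that were higher in susceptible mice, and the highest at 54.2% of those that were lower. In the resilient table the shares of library 52 were 38.4% and 37.5%, and those of control library 55 were 46.2% and 40.1%. The share of sites higher than control was 50.3% for H3K27me1 and 69.4% for H3K27me2 in susceptible mice, and 51.6% for H3K27me1 and 79.5% for H3K27me2 in resilient mice. The authors' test may have pooled the reads of a group. Across libraries (limma on log2(normalised reads + 1)), 96.5% of the H3K27me1 and 92.6% of the H3K27me2 sites of the susceptible tables passed an adjusted p of 0.05 over the sites of their table, and 97.6% and 95.4% of those of the resilient tables. These sites had been chosen on the same libraries. Adjusted over all windows the authors tested, 0% passed in any of the 4 tables by limma, with 11721, 1936, 6849 and 4452 sites at an unadjusted p under 0.05. Only the listed sites were fitted by limma. The adjustment took the number of windows and counted every unlisted window as having a larger p, which could not be checked. The smallest adjusted p over all windows was 0.0996 and 0.603 for H3K27me1 and H3K27me2 in susceptible mice, and 0.364 and 0.209 in resilient mice. The H3K27me2 calls of the susceptible table over its own sites were 1921, and 0 without susceptible library 53 or 59, so every site below is described as deposited and not as a call across libraries.

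Most bins with H3K27me1 sites held no H3K27me2 site, whereas most bins with H3K27me2 sites held H3K27me1 sites too. In susceptible mice 1451 bins held H3K27me1 sites alone, 226 held H3K27me2 sites alone and 398 held both. In resilient mice the counts were 1295, 353 and 372. The shared bins were 21.5% of the H3K27me1 bins and 63.8% of the H3K27me2 bins in susceptible mice, and 22.3% and 51.3% of them in resilient mice. Among all 2413 bins with an annotated gene or a site, 1849 held H3K27me1 sites in susceptible and 1667 in resilient mice. H3K27me2 sites lay in 624 and 725 of them. H3K27me1 sites were thus in a smaller share of the H3K27me2 bins than of all these bins in both outcomes. A further 338 bins with an annotated gene held no site of either mark in the susceptible tables, and 393 in the resilient tables.

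**Figure D1:**
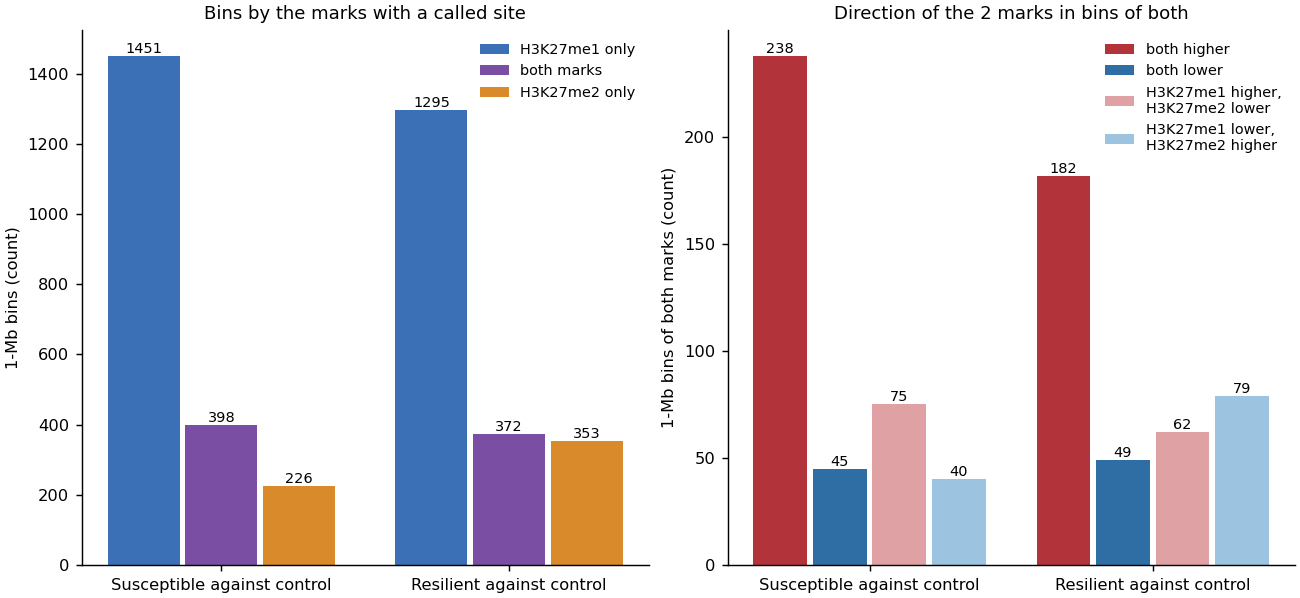
Number of 1-Mb bins by the marks whose called sites they hold (left) and, for bins of both marks, by the direction of the mean log2 ratio of each mark (right), for susceptible and for resilient mice against control. Bins of H3K27me1 alone are the most frequent class (1451 and 1295), and bins in which both marks were higher are the most frequent direction class (238 and 182).

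Gene content set the classes apart. Bins of H3K27me1 alone held a median of 8 protein-coding genes in susceptible and 9 in resilient mice, whose bodies covered 54.03% and 55.6% of the bin. Bins of both marks held a median of 2 and 3 genes, covering 24.6% and 30.9%. Bins of H3K27me2 alone held a median of 1 gene in both outcomes and gene bodies covered 1.04% and 1.36% of them, so 43.8% and 45.6% of these bins had no protein-coding gene at all by gene midpoint. Site by site, 87.2% and 85.8% of H3K27me1 sites (susceptible and resilient tables) touched the body of a protein-coding gene, against 11.1% and 9.28% of H3K27me2 sites. Exons were touched by 29.7% and 26.2% of H3K27me1 sites and by 2.65% and 2.54% of H3K27me2 sites. Bins and sites of the same libraries are not replicates, so these are counts without a test.

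**Figure D2:**
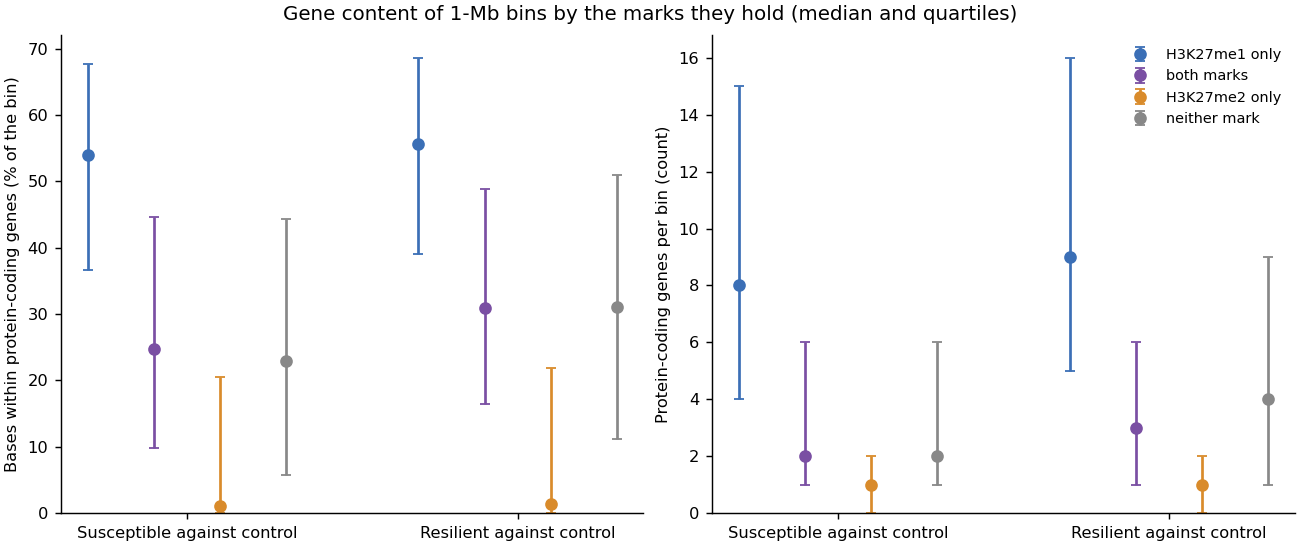
Share of each 1-Mb bin within protein-coding genes (left) and number of protein-coding genes (right) by the marks the bin holds; points are medians and bars run from the first to the third quartile over bins. Bins of H3K27me1 alone have the most gene sequence (54.03% and 55.6%), bins of H3K27me2 alone the least (1.04% and 1.36%), and bins of both marks lie between them.

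Whole chromosomes differed as well. Chromosomes 7, 9, 17 and 19 together held 1793 H3K27me1 sites but only 17 H3K27me2 sites in the susceptible tables, which is 14.8% of the first and 0.819% of the second. In the resilient tables they held 1212 H3K27me1 and 32 H3K27me2 sites, 17.3% and 0.688%. Of these few H3K27me2 sites 4 of 17 were higher in susceptible and 6 of 32 in resilient mice. Chromosome 19 had 199 H3K27me1 sites and 1 H3K27me2 site in the susceptible tables, and 134 and 0 in the resilient tables. Each of the other 15 autosomes held 52 to 335 H3K27me2 sites in susceptible and 90 to 835 in resilient mice. Chromosomes 1 and 3 held the most H3K27me2 sites in both outcomes, with 323 and 335 in susceptible and 835 and 714 in resilient mice. The files do not list the windows tested per chromosome, and a site cannot be called outside them.

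**Figure D3:**
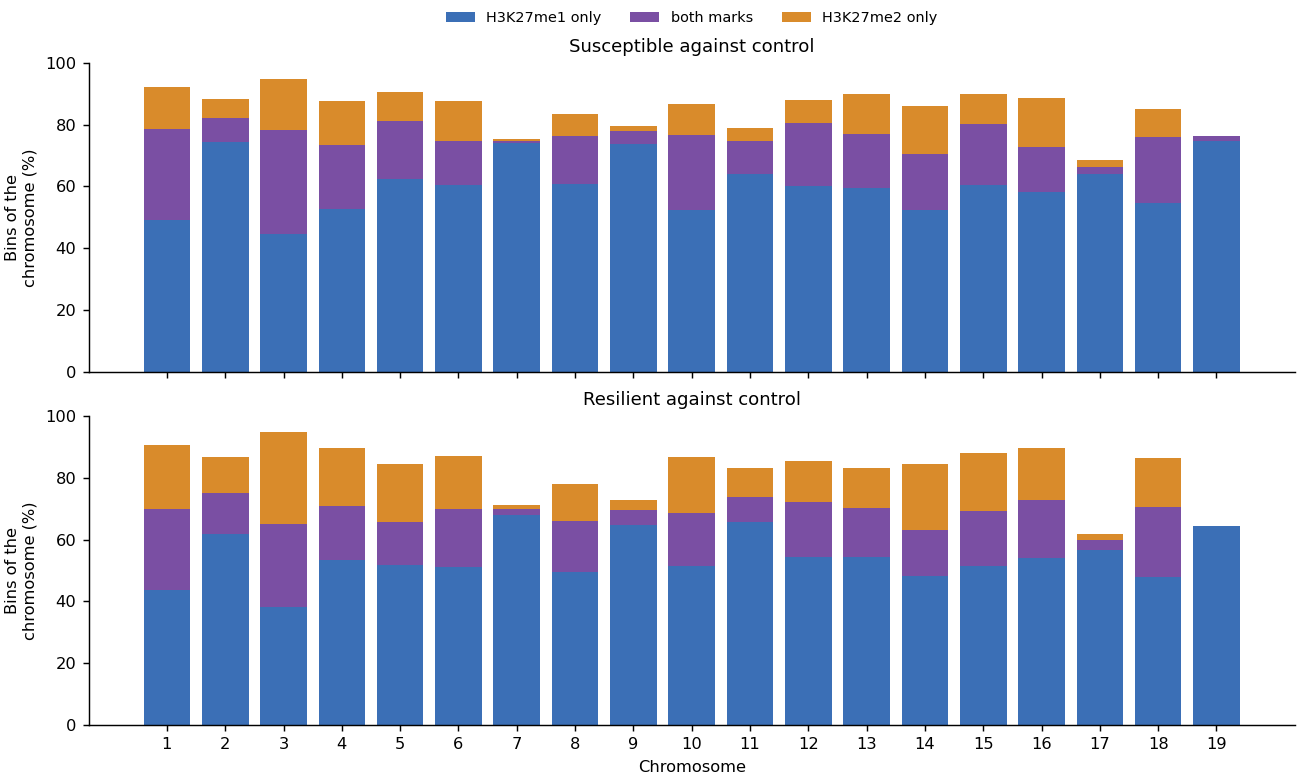
Share of the 1-Mb bins of each autosome that hold H3K27me1 sites only, both marks or H3K27me2 sites only, for susceptible mice (top) and resilient mice (bottom) against control; the rest up to 100% are bins with an annotated gene and no site. Chromosomes 7, 9, 17 and 19 show almost no H3K27me2 bins.

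The leading bins of each single mark show the contrast in territory. In susceptible mice the bin with most H3K27me1 sites and no H3K27me2 site was chr10:49000001-50000000, with 60 sites, 59 of them higher. Grik2, a kainate receptor subunit, held 59 of the 60 sites, 58 of them higher. The summed H3K27me1 reads of this bin were 11160, 11855, 9248 and 10625 in susceptible mice, against 8093, 8985, 7686 and 8663 in control mice, so the groups did not overlap. The second was chr10:32000001-33000000, where Nkain2, which codes for a partner protein of the sodium pump, held 45 of the 46 sites, 41 of them higher. The third, chr12:19000001-20000000, ran the other way, with 41 of 43 sites lower and 0.0336% of the bin within protein-coding genes. Susceptible libraries held 4563, 4055, 5141 and 5040 summed H3K27me1 reads in it and control libraries 5995, 5694, 6368 and 6258. In resilient mice the leading H3K27me1 bins were 3 neighbours, chr7:20000001-21000000, chr7:21000001-22000000 and chr7:22000001-23000000, with 28, 28 and 44 sites, of which 26, 24 and 43 were higher. They hold 29, 22 and 27 protein-coding genes in a vomeronasal receptor cluster, and reads from such near-identical copies may be shared between them.

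The leading bins of H3K27me2 alone contained no protein-coding gene. In resilient mice chr1:141000001-142000000 and chr1:145000001-146000000 held 37 H3K27me2 sites each, 36 of them higher. In the first, summed H3K27me2 reads were 3800, 4128, 3797 and 4001 in resilient mice and 3482, 2828, 2451 and 2706 in control mice. The bin chr3:77000001-78000000 was among the leading H3K27me2 bins of both outcomes, with 10 of 14 sites higher in susceptible and 33 of 36 sites higher in resilient mice. Its summed reads were 1238, 1324, 1177 and 1394 in susceptible mice, inside the range of 1315, 982, 1084 and 1064 in control mice at 2 of the 4 libraries. Over the resilient table's sites the values were 3731, 3861, 3912 and 3849 in resilient mice and 3512, 2558, 2573 and 2835 in control mice, without overlap. Across all bins of H3K27me2 alone, 78.8% were higher in susceptible and 91.5% in resilient mice, against 42.7% and 47.2% of the bins of H3K27me1 alone.

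Where both marks had sites, the most frequent pattern was that both were higher. Of the 398 shared bins in susceptible mice, both marks were higher in 238 and both lower in 45, while H3K27me1 was higher with H3K27me2 lower in 75 and the reverse held in 40. Of the 372 shared bins in resilient mice, the same 4 counts were 182, 49, 62 and 79. The marks thus had the same direction in 71.1% of shared bins in susceptible and 62.1% in resilient mice. Since 69.4% and 79.5% of all H3K27me2 sites were higher, the direction was also read by that of H3K27me1. In susceptible mice H3K27me2 was higher in 76.0% of the shared bins in which H3K27me1 was higher and in 47.1% of those in which it was lower. In resilient mice the shares were 74.6% and 61.7%. Limited to sites above the IgG background, the susceptible shares were 78.2% and 62.5% and the resilient ones 81.0% and 69.03%, so the contrast between the 2 susceptible shares was smaller there. Without H3K27me2 control library 52 the susceptible shares were 76.7% and 44.7%, and the resilient ones 74.6% and 62.5%. These shares were recomputed over the same sites, which had been called with library 52 included. They cannot show which sites would be called without it.

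**Figure D4:**
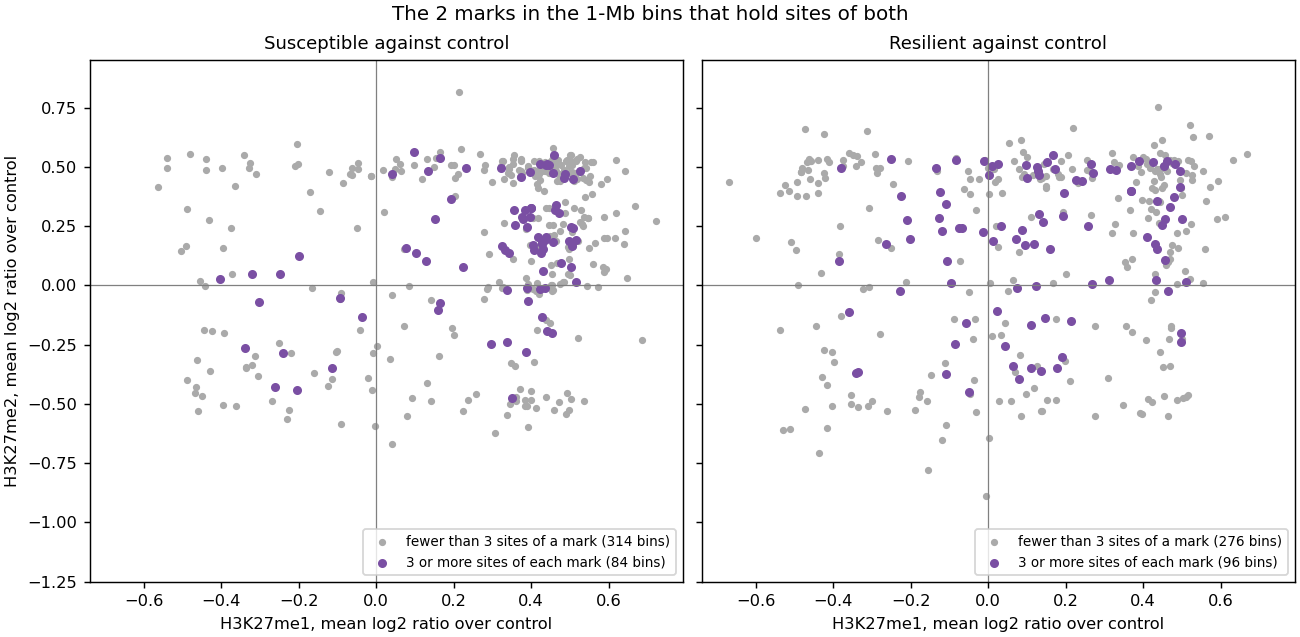
Mean log2 ratio of H3K27me2 sites (vertical axis) against that of H3K27me1 sites (horizontal axis) in each 1-Mb bin that holds both, for susceptible mice (left, 398 bins) and resilient mice (right, 372 bins) against control; purple bins hold at least 3 sites of each mark. In both panels the upper right, where both marks were higher, holds the most bins (238 and 182).

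Across shared bins the sizes of the 2 changes were weakly related. Pearson's r was 0.25 and Spearman's rho 0.20 over 398 bins in susceptible mice, and 0.13 and 0.11 over 372 bins in resilient mice. Among bins with at least 3 sites of each mark r was 0.41 over 84 bins and 0.19 over 96 bins. The bins of an outcome share their libraries, so these are descriptions. Library by library, H3K27me2 sites in bins of higher H3K27me1 averaged 0.17 to 0.24 log2 units above the control mean in the 4 susceptible libraries, against -0.18 to 0.11 in the control libraries. In bins of lower H3K27me1 they averaged -0.05 to -0.02 in susceptible libraries, inside the -0.20 to 0.08 of the control libraries. In resilient libraries H3K27me2 averaged 0.20 to 0.24 where H3K27me1 was higher and 0.17 to 0.23 where it was lower, above the control libraries' -0.12 to 0.12 and -0.12 to 0.10. These sites had been called on the same libraries, so their separation from control was partly fixed by that selection.

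The difference between the marks was tested in each shared bin as the change of H3K27me1 minus that of H3K27me2 (limma over 16 libraries on log2(summed normalised reads + 1), Benjamini-Hochberg over the shared bins). It passed an adjusted p of 0.05 in 24.1% of the bins in susceptible mice (96 of 398) and in 37.9% in resilient mice (141 of 372). The sites had been selected on these libraries, which makes such p-values too small. The fit took the 16 libraries as independent, and the labels do not say whether libraries of the 2 marks came from the same mice. In susceptible mice H3K27me1 changed more toward higher values in 63 of the 96 bins and H3K27me2 in 33. In resilient mice the split was 51 and 90. Among the bins with opposite directions 49 of 75 and 28 of 40 passed in susceptible mice, and 37 of 62 and 68 of 79 in resilient mice. Of those with the same direction 16 of 238 (both higher) and 3 of 45 (both lower) passed in susceptible mice, and 30 of 182 and 6 of 49 in resilient mice. Opposite directions are close to what this test measures, so the order of these shares follows from how the bins were sorted.

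The summed reads of outcome and control libraries did not overlap in 62.3% of shared bins for H3K27me1 and 49.2% for H3K27me2 in susceptible mice, and in 46.8% and 59.1% in resilient mice. The bins described next were those with most sites of the rarer mark in each direction class. Among bins with both marks higher, chr6:102000001-103000000 led in resilient and came second in susceptible mice. It holds Cntn3, a contactin of neuronal adhesion. All 13 of its H3K27me1 sites were higher in susceptible mice and lay in Cntn3, and 8 of its 9 H3K27me2 sites were higher and lay outside protein-coding genes. Summed H3K27me1 reads were 1922, 2094, 1790 and 1934 in susceptible mice and 1433, 1554, 1413 and 1498 in control mice. Summed H3K27me2 reads were 884, 1007, 886 and 975 in susceptible mice, all above the 867, 615, 771 and 771 of control mice. The marks changed by 0.39 and 0.32 log2 units (H3K27me1 and H3K27me2), a difference of 0.07 ± 0.14 (SE) that did not pass (limma, adjusted p = 0.79). In resilient mice 6 of 9 H3K27me1 and 8 of 10 H3K27me2 sites there were higher, with changes of 0.17 and 0.34 log2 units and a difference of -0.16 ± 0.14 (adjusted p = 0.378).

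The first of these bins in susceptible mice was chr10:101000001-102000000, where 17 of 18 H3K27me1 sites lay in Mgat4c, which codes for a glycosyltransferase family member, and all 18 were higher. Its H3K27me1 reads were 2389, 2516, 1934 and 2167 in susceptible mice and 1731, 1660, 1565 and 1665 in control mice. Its 9 H3K27me2 sites, 6 higher, gave 731, 810, 729 and 765 reads in susceptible mice and 747, 655, 637 and 696 in control mice, which overlap. In resilient mice chr10:106000001-107000000 held Ppfia2, a liprin of the presynaptic active zone, in which 8 of 9 H3K27me1 sites were higher. Of the 10 H3K27me2 sites of this bin 9 were higher, and none of them lay in Ppfia2. H3K27me1 reads there were 1017, 1013, 1002 and 1012 in resilient mice and 844, 878, 722 and 749 in control mice. H3K27me2 reads were 1058, 1002, 1068 and 987 in resilient mice, against 915, 729, 703 and 772 in control mice. Neither mark overlapped between the groups, and the difference of -0.06 ± 0.13 log2 units between the marks did not pass (limma, adjusted p = 0.779). In the third resilient bin, chr4:147000001-148000000, 27 of 28 H3K27me1 sites were higher, several of them in zinc-finger genes such as Zfp978, Zfp979 and Zfp988, while 4 of 8 H3K27me2 sites were higher. Summed H3K27me2 reads there were 753, 663, 662 and 860 in resilient mice and 716, 725, 839 and 735 in control mice, which overlap, with the lower mean in resilient mice.

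The widest difference among the named bins lay in 1 with H3K27me1 lower and H3K27me2 higher. In bins of opposite direction the test largely restates how they were sorted, so their p-values are given as descriptions. In resilient mice chr13:106000001-107000000 held 7 H3K27me1 sites, all lower, in Ipo11 (a nuclear import receptor), Dimt1 (a ribosomal RNA methyltransferase) and Kif2a (a microtubule-depolymerising kinesin), and 7 H3K27me2 sites, all higher, outside genes. Summed H3K27me1 reads were 853, 927, 880 and 888 in resilient mice, all below the 1155, 1184, 1153 and 1075 of control mice. Summed H3K27me2 reads were 675, 656, 683 and 693 in resilient mice, all above the 597, 389, 481 and 469 of control mice. The changes were -0.36 and 0.50 log2 units, a difference of -0.86 ± 0.14 (limma, adjusted p = 0.000442). At chr1:10000001-11000000 the H3K27me1 sites in Arfgef1, an activator of ARF GTPases, and Cops5, a subunit of the COP9 signalosome, were lower at all 5, whereas 5 of 7 H3K27me2 sites in Cpa6, a carboxypeptidase gene of the same bin, were higher. H3K27me1 reads were 693, 753, 808 and 725 in resilient mice and 826, 930, 904 and 928 in control mice. H3K27me2 reads were 773, 835, 812 and 778 in resilient mice and 707, 722, 697 and 651 in control mice. The groups did not overlap for either mark and the marks differed by -0.47 ± 0.11 log2 units (adjusted p = 0.00328). At chr4:21000001-22000000 the difference was -0.66 ± 0.15 (adjusted p = 0.00242), with 5 of 5 H3K27me2 sites higher outside genes. H3K27me1 was lower in Usp45 and Ccnc, a deubiquitinase and cyclin C, but 2 of 3 H3K27me1 sites in Faxc were higher. The H3K27me1 change of the bin was -0.15 ± 0.10 log2 units. The H3K27me1 reads of the groups overlapped in that bin.

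In susceptible mice the class with H3K27me1 lower and H3K27me2 higher was led by chr14:43000001-44000000, a stretch of predicted genes, where 10 of 10 H3K27me1 sites were lower and 5 of 9 H3K27me2 sites higher. H3K27me1 reads were 996, 973, 1245 and 1186 in susceptible mice, below the 1387, 1417, 1429 and 1523 of control mice. H3K27me2 reads of 1541, 1529, 1588 and 1458 in susceptible mice overlapped with 1509, 1314, 1521 and 1429 in control mice. The difference was -0.48 ± 0.13 log2 units (limma, adjusted p = 0.0141). The next, chr1:85000001-86000000, holds Sp110 and Sp140, nuclear body proteins of immune cells in a cluster of similar genes. In susceptible mice all 16 H3K27me1 sites of this bin were lower and 4 of 6 H3K27me2 sites higher, with a difference of -0.44 ± 0.14 (adjusted p = 0.0291). In resilient mice 7 of 11 H3K27me1 sites were higher and all 29 H3K27me2 sites lower, with a difference of 0.47 ± 0.12 (adjusted p = 0.00683). H3K27me2 reads over the resilient table's sites were 5576, 5090, 4893 and 4632 in resilient mice, below the 5754, 5821, 7198 and 6409 of control mice. The sites of the 2 tables differ, and the contrast between the outcomes was not tested. In susceptible mice the third bin with H3K27me1 lower and H3K27me2 higher was chr14:42000001-43000000. Its difference of -0.25 ± 0.13 did not pass (limma, adjusted p = 0.147), and its H3K27me2 change was -0.04 log2 units. Besides chr1:85000001-86000000, the named resilient bins with H3K27me1 higher and H3K27me2 lower did not pass. These were chr8:20000001-21000000 (0.31 ± 0.21, limma, adjusted p = 0.254) and chr15:50000001-51000000 (0.11 ± 0.11, adjusted p = 0.488). In the chromosome 8 bin the H3K27me2 reads were 4773, 4414, 4573 and 4683 in resilient mice. They overlapped with the 4384, 4258, 7846 and 6186 of control mice. In the chromosome 15 bin the H3K27me2 change over summed reads was 0.01 log2 units, not lower.

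The 3 named bins with H3K27me1 higher and H3K27me2 lower in susceptible mice were chr4:18000001-19000000 with Mmp16, a membrane-bound metalloprotease, chr5:14000001-15000000 with Pclo, a presynaptic scaffold, and chr5:84000001-85000000 with Epha5, an ephrin receptor. H3K27me1 sites were higher at 12 of 12 in Mmp16, 23 of 25 in Pclo and 15 of 15 in Epha5. In the Epha5 bin, H3K27me1 reads were 2114, 2281, 1721 and 2089 in susceptible mice and 1512, 1620, 1394 and 1579 in control mice. The 4 H3K27me2 sites of that bin, 2 of them lower, gave 310, 319, 300 and 322 reads in susceptible mice and 309, 365, 289 and 304 in control mice. The H3K27me2 reads of the groups overlapped in all 3 bins, and the H3K27me1 reads overlapped in the Pclo bin. The differences between the marks were 0.42 ± 0.13 (adjusted p = 0.0267) in the Mmp16 bin, 0.44 ± 0.15 (adjusted p = 0.0354) in the Pclo bin and 0.43 ± 0.14 (adjusted p = 0.0303) in the Epha5 bin, all by limma. These calls depended on single libraries. The Mmp16 call was lost without library 26, 29, 31 or 56 (adjusted p from 0.0546 to 0.0626), the Pclo call without 11 of the 16 libraries (0.0533 to 0.0756), the Epha5 call without 7 (0.0525 to 0.0702) and the susceptible Sp110 call without 7 (0.0504 to 0.0692).

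**Figure D5:**
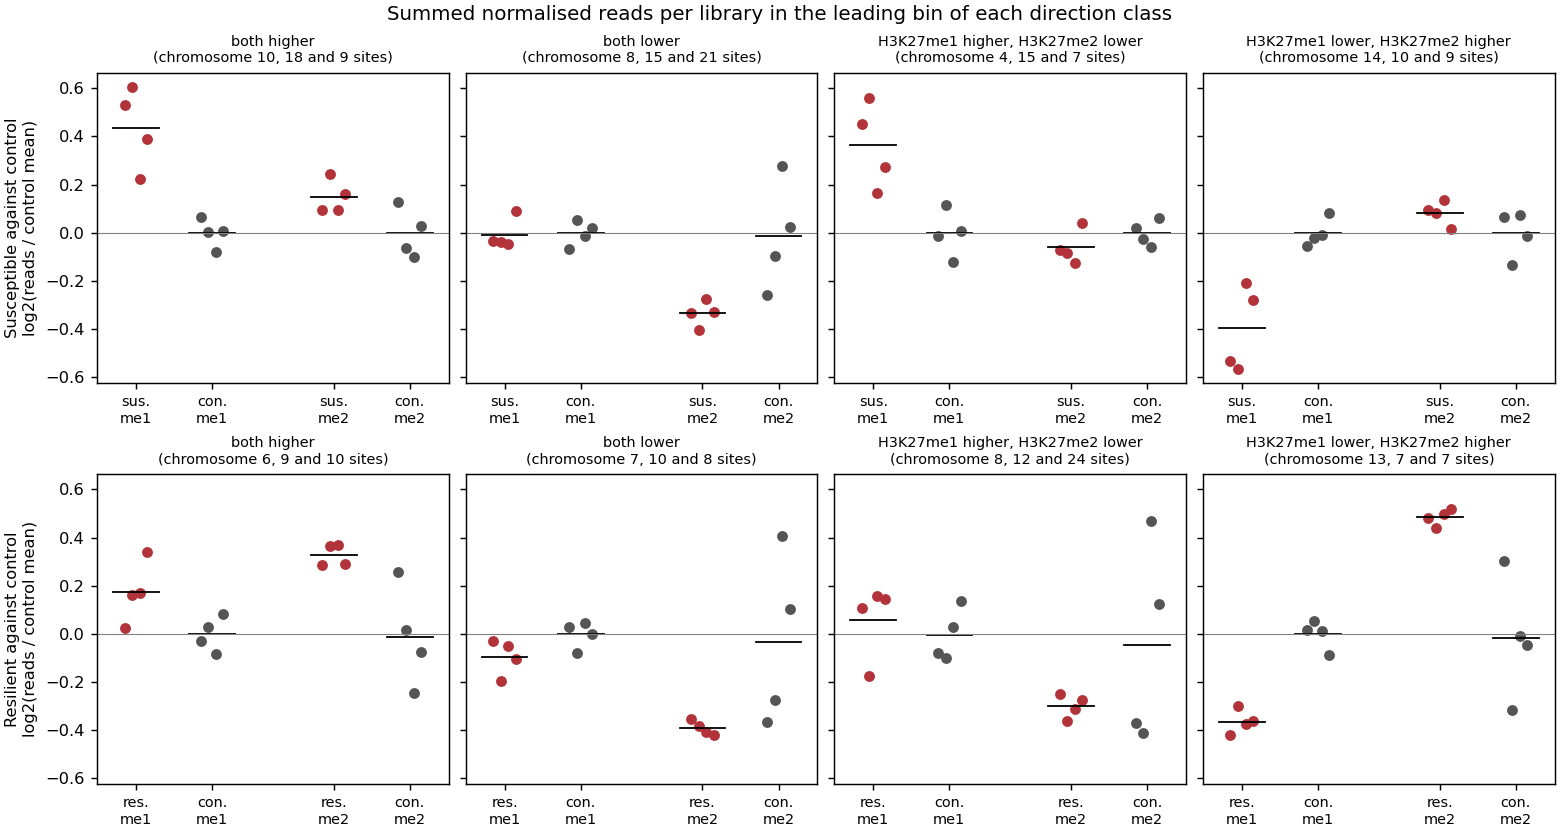
Log2 ratio of the summed normalised reads of each library to the mean of the 4 control libraries of its mark, in the leading bin of each direction class; red points are susceptible (top row) or resilient (bottom row) libraries, grey points control libraries, lines the mean of the 4 log2 values, and me1 and me2 stand for H3K27me1 and H3K27me2. In the bin on chromosome 13 the 2 marks moved apart without overlap of the groups, while H3K27me2 control libraries spread widely in the bins on chromosomes 7 and 8.

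Of the 3 named bins with both marks lower in susceptible mice, 2 had a median H3K27me2 enrichment below the IgG background. The first, chr8:20000001-21000000, held 15 H3K27me1 sites, 9 of them lower, and 21 H3K27me2 sites, 20 lower, and the median enrichment of its H3K27me2 sites over IgG was 0.95, below background. Summed H3K27me1 reads were 4183, 4171, 4155 and 4566 in susceptible mice and 4093, 4454, 4250 and 4353 in control mice, so this mark did not separate the groups. Summed H3K27me2 reads were 2621, 2498, 2728 and 2631 in susceptible mice, all below the 2759, 3085, 4002 and 3362 of control mice. In resilient mice the same bin had 7 of 12 H3K27me1 sites higher and 20 of 24 H3K27me2 sites lower. At chr11:3000001-4000000, with Sfi1, a centrosomal protein, and Drg1, a GTPase, 14 of 15 H3K27me1 and 9 of 9 H3K27me2 sites were lower in susceptible mice. The H3K27me2 sites had a median enrichment of 0.65, and the reads of the groups overlapped for both marks. At chr8:60000001-61000000 in resilient mice the median enrichment of the H3K27me2 sites was 2.93, and 5 of 5 H3K27me1 sites were lower, lying in Clcn3 (a chloride transporter of vesicles), Hpf1 and Mfap3l. H3K27me1 reads there were 593, 656, 584 and 584 in resilient mice and 710, 833, 768 and 769 in control mice. H3K27me2 reads were 394, 412, 377 and 389 in resilient mice and 419, 425, 397 and 412 in control mice, and these overlapped.

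Sharing a bin rarely meant sharing a site. The median distance from an H3K27me2 site to the nearest H3K27me1 site was 417 kb in susceptible and 712 kb in resilient mice, and 244 and 285 kb inside shared bins. Within 10 kb of an H3K27me1 site lay 67 of 2075 and 91 of 4654 H3K27me2 sites. Only 28 pairs of sites overlapped in susceptible and 29 in resilient mice, involving 0.231% and 0.399% of H3K27me1 sites and 1.20% and 0.580% of H3K27me2 sites. Of these pairs 24 and 19 included a site below the IgG background, and both marks were lower in 21 and 16. The longest overlap, 39900 bp at the start of chromosome 9 (chr9:2999201-3039100) over 9 predicted genes, was lower for both marks in both outcomes. Its log2 ratios were -0.11 and -0.18 (H3K27me1 and H3K27me2) in susceptible and -0.11 and -0.14 in resilient mice. The H3K27me2 enrichment over IgG there was 0.24 in susceptible and 0.27 in control mice. An overlap above background in resilient mice in which both marks were higher was chr13:12852401-12853200, outside protein-coding genes, with log2 ratios of 0.45 and 0.43.

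Genes holding both marks were few. H3K27me1 sites lay in 20.7% of 20807 autosomal protein-coding genes (4302) in susceptible and 15.4% (3199) in resilient mice, H3K27me2 sites in 0.764% (159) and 1.18% (246). Both marks had sites in 47 genes in susceptible and 53 in resilient mice. Both were higher in 15 and 16 of these genes and both lower in 19 and 17, of which 9 in each outcome were predicted genes under 1 pair of overlapping sites on chromosome 9, with H3K27me1 higher and H3K27me2 lower in 9 and 15 and the reverse in 4 and 5. These genes are long, with a median of 144 kb in susceptible and 194 kb in resilient mice against 17.6 kb for all protein-coding genes, and a longer gene can hold more sites. With sites above the IgG background alone, 26 and 31 genes held both marks. The genes in which both were lower included Sfi1, Drg1, Aida, Tmem267 and Cdk5rap2 in susceptible mice, and at each of them the leading H3K27me2 site was below the IgG background.

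Cntnap5b, a neurexin-family adhesion gene of 713 kb, was 1 of 3 genes with 4 sites of the rarer mark in susceptible mice, besides Sfi1 and the uncharacterised C130026I21Rik. It had 9 H3K27me1 sites, 8 of them higher, and 4 H3K27me2 sites, all higher. Its leading H3K27me1 site (chr1:100007101-100009800, intronic) held 246, 242, 215 and 232 normalised reads in susceptible mice and 156, 166, 158 and 165 in control mice. Its leading H3K27me2 site (chr1:100394201-100395500, intronic) held 112, 103, 118 and 113 in susceptible mice and 80.6, 66.96, 69.04 and 97.8 in control mice. Neither site overlapped between the groups, and the changes across libraries were 0.53 ± 0.13 and 0.52 ± 0.16 log2 units (limma, adjusted p = 0.0119 and 0.0259 over the sites of the tables, 0.265 and 0.603 over all windows). Over all deposited sites the share without such overlap was not counted. In resilient mice the same gene held 2 H3K27me1 sites, 1 of them lower, and 9 H3K27me2 sites, 8 of them higher. Its leading H3K27me1 site there (chr1:99944301-99945500) had 66.4, 57.6, 50.96 and 50.1 reads in resilient mice, below the 76.4, 93.6, 84.0 and 87.2 of control mice.

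Other long genes had both marks higher in susceptible mice. Gpc5, a cell-surface glypican, held 2 H3K27me1 sites, both higher, and 8 H3K27me2 sites, 7 higher. Ptprd, a receptor phosphatase of synaptic adhesion, held 16 H3K27me1 sites, all higher, and 1 higher H3K27me2 site. Cdh12, a neural cadherin, held 1 H3K27me1 and 3 H3K27me2 sites, all higher. The leading H3K27me2 site of Gpc5 (chr14:116429801-116431600, intronic) had 149, 170, 149 and 168 reads in susceptible mice, above the 127, 91.8, 130 and 109 of control mice. In resilient mice Gpc5 and Cdh12 held H3K27me2 sites alone, with 6 of 8 and 5 of 7 higher. Fstl5, a secreted follistatin-like protein, had 2 of 2 H3K27me1 and 7 of 7 H3K27me2 sites higher in resilient mice. Its leading H3K27me2 site (chr3:76241201-76242600, intronic) had 117, 106, 129 and 129 reads in resilient mice and 109, 50.7, 68.5 and 84.5 in control mice, where 1 control library reached into the resilient range.

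Dpyd, which codes for the enzyme that starts pyrimidine breakdown, had opposite directions in susceptible mice. Its 5 H3K27me1 sites were all higher and its 3 H3K27me2 sites all lower. The leading H3K27me1 site (chr3:118929501-118930700, intronic) held 92.9, 97.5, 90.8 and 88.4 reads in susceptible mice and 55.2, 59.9, 80.0 and 57.7 in control mice. The leading H3K27me2 site (chr3:118736601-118737700, intronic) held 58.2, 54, 58.7 and 73.0 reads in susceptible mice and 102, 81.8, 89.5 and 105 in control mice. The groups did not overlap at either site, with changes of 0.56 ± 0.14 and -0.63 ± 0.16 log2 units (limma, adjusted p = 0.0119 and 0.0259 over the sites of the tables, 0.265 and 0.603 over all windows). In resilient mice Dpyd had 1 H3K27me1 site, higher, and 3 H3K27me2 sites, 2 of them lower. Hdac9, a histone deacetylase, had 1 higher H3K27me1 and 1 lower H3K27me2 site in susceptible mice. Kcnb2, a voltage-gated potassium channel, had 1 higher H3K27me1 and 2 lower H3K27me2 sites in resilient mice. Lmo3, a LIM-domain transcriptional regulator, had 1 lower site of each mark in resilient mice.

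More protein-coding genes held H3K27me1 than H3K27me2 sites in general, 20.7% and 15.4% against 0.764% and 1.18% in susceptible and resilient mice, and the gene lists are read beside these shares. Genes with H3K27me1 sites had a median length of 46.9 kb in susceptible and 59.1 kb in resilient mice, against 17.6 kb for all genes. The lists were not matched for length, so a higher share in a list of long genes may reflect length alone. Of 51 synaptic adhesion genes on autosomes, 39 held H3K27me1 sites in susceptible mice (36 higher on average) and 35 in resilient mice (23 higher), while 4 and 3 held H3K27me2 sites, all higher. Over all genes with a site, 33.4% were higher for H3K27me1 and 62.3% for H3K27me2 in susceptible mice, and 42.6% and 60.2% in resilient mice. Of the H3K27me1 sites in genes, 51.7% were higher in susceptible and 48.7% in resilient mice, larger shares than of genes. Direction may thus differ with the number of sites in a gene, for which the lists were not matched. The medians of the list were 0.40 and 0.15 log2 units for H3K27me1 in susceptible and resilient mice. Glutamate receptor genes held H3K27me1 sites in 11 of 18 in both outcomes (9 and 7 higher) and H3K27me2 sites in 0 and 1. GABA receptor genes held H3K27me1 sites in 9 and 7 of 14 (9 and 5 higher) and no H3K27me2 site. Sodium and calcium channel genes held H3K27me1 sites in 17 and 15 of 19 (12 and 7 higher) and no H3K27me2 site. Axon guidance genes held H3K27me1 sites in 14 and 13 of 28 (13 and 10 higher) and H3K27me2 sites in 1 and 2. Potassium channel genes held H3K27me1 sites in 11 and 8 of 25 (5 and 6 higher) and H3K27me2 sites in 1 and 4, of which 1 and 3 were higher.

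Of 31 Polycomb and H3K27 enzyme genes, 13 held H3K27me1 sites in susceptible mice, 9 of them lower, and 12 in resilient mice, 7 of them lower, and none held an H3K27me2 site. Over all genes with an H3K27me1 site, 33.4% and 42.6% were higher, so the directions of this list were near those of all genes. Zinc-finger genes held H3K27me1 sites in 147 and 110 of 455 (42 and 47 higher) and H3K27me2 sites in 2 and 5. The 52 clustered protocadherin genes, which overlap one another so that 1 site can count for many, held H3K27me1 sites in 25 and 30 (7 and 30 higher) and no H3K27me2 site. Vomeronasal and olfactory receptor genes, silent in brain neurons and mostly clustered, held more H3K27me2 than H3K27me1 sites, at a share of genes with H3K27me2 close to that of all genes. Of 1470 such genes 11 held H3K27me2 sites in susceptible mice, 10 of them higher, and 17 in resilient mice, 15 of them higher, while 5 and 6 held H3K27me1 sites. These are 0.748% and 1.16% of the group for H3K27me2, beside 0.764% and 1.18% of all genes, and 0.340% and 0.408% for H3K27me1, beside 20.7% and 15.4%. Vmn2r1, Vmn2r4 and Vmn2r7 had a higher H3K27me2 site in both outcomes. Striatal identity genes held H3K27me1 sites in 3 of 26 in both outcomes, all higher, and stress hormone and neurotrophin genes in 5 and 4 of 16 (4 and 3 higher), without H3K27me2 sites. Ribosomal protein genes held H3K27me1 sites in 3 and 0 of 76, all lower. Astrocyte and microglia markers each held H3K27me1 sites in 1 of 12 in both outcomes, and oligodendrocyte markers held 1 site of each mark over 15 genes in susceptible mice and 0 in resilient mice. Of 69 developmental transcription factor genes, 67 histone genes, 12 vascular markers and 16 cortical and interneuron markers, 0 held a site of either mark.

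In susceptible mice Csmd3, a complement-domain gene of synapses, held 93 H3K27me1 sites, 92 of them higher, and no H3K27me2 site. Lsamp, a neuronal adhesion molecule, held 51 H3K27me1 sites in susceptible mice, 50 higher, and 30 in resilient mice, all higher. Klhl1, an actin-binding kelch protein, held only H3K27me2 sites, 3 of 4 higher in susceptible and 10 of 12 higher in resilient mice. Naaladl2 in resilient mice held 9 H3K27me2 sites, 8 higher, and no H3K27me1 site, and Ndst4, a heparan sulfate sulfotransferase, held 6 such sites, all higher.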

How the data were processed

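CUT&RUN libraries for H3K27me1 and H3K27me2 (4 per mark and group, 24 in all) were analysed from 4 deposited tables. The submitters' processing notes name Trim Galore 0.6.5, cutadapt 2.10, Bowtie2 2.4.1, SAMtools 1.10, MACS2 2.2.6 and the mm10 build. Per the file headers, the authors called regions with diffReps 1.55.4 by a G-test in windows of 1000 bp moved by 100 bp, with p below 0.0001. The names of the tables mention a negative binomial test instead. The tables list called regions only, and the number of windows tested is in the headers. The deposited signal values are group averages of read numbers that the authors divided by a library constant. The values of the single libraries stand in combined cells, so raw counts were not analysed here. The deposited enrichment is a ratio of signal to IgG, the p-values were adjusted by the authors over the windows tested, and the authors' log2 values are of the group averages.

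From these, sites were placed in 1-Mb bins and matched to GENCODE M21 genes by an overlap of at least 1 bp. Each site and each bin of both marks was tested with limma 3.58.1 (R 4.3.3) on log2(normalised reads + 1), with Benjamini-Hochberg adjustment, after a test on simulated data. Other steps used Python 3.11.15 and pandas 2.3.3. Bins were named by the number of sites of the rarer mark, 3 per direction class, and genes by the same number. The bins, gene lists and tests were chosen with earlier results of these data known. Alternatives covered bin size, minimum sites, an enrichment above 1, other pseudocounts and each library left out. Depth limits which windows could be called, and the number of libraries limits the precision.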

Additional observations from a re-analysis of the deposited data

Results flagged for a closer look

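In 6 of 120 groups of 4 libraries over the named bins, 1 library lay far from the other 3 of its group by Dixon's criterion, and chance alone flags about 1 group in 20. In the susceptible comparison H3K27me1 library 35 held 4565.79 summed normalised reads in chr8:20000001-21000000, with the nearest susceptible library at 4182.62. Susceptible H3K27me2 library 56 held 914.17 in chr5:14000001-15000000, with the nearest at 768.12. Susceptible H3K27me2 library 59 held 975.51 in chr1:85000001-86000000, with the nearest at 1099.99. In the resilient comparison H3K27me1 library 30 held 656.19 in chr8:60000001-61000000, with the nearest resilient library at 593.37, and 1831.16 in chr8:20000001-21000000, with the nearest at 2229.61. Control H3K27me2 library 55 held 838.57 in chr4:147000001-148000000, with the nearest control library at 735.05.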

How the results depend on the processing

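Of 398 alternative values of the main results, 366 stayed within their limits and 32 moved. The limits were a fold range for counts and a binomial interval over bins for shares, although bins are not replicates. Requiring a mean of at least 20 normalised reads removed no site, so its values could not move and stand among the 366. Bins of 0.5 Mb gave 2464 bins of H3K27me1 alone and 567 of H3K27me2 alone in susceptible mice, and 2123 and 820 in resilient mice; bins of 2 Mb gave 745 and 45, and 686 and 91. With at least 2 sites of a mark, 180 and 171 bins held both. The share of shared bins with H3K27me2 higher where H3K27me1 was lower in susceptible mice was 47.1%, but 62.5% with enrichment above 1, 33.8% with 0.5-Mb bins and 35.7% with at least 2 sites. In resilient mice it was 74.5% with at least 2 sites, and the share where H3K27me1 was higher was 81.0% with enrichment above 1 and 81.0% with 2-Mb bins. Overlapping pairs numbered 4 and 10 with enrichment above 1 (2 and 6 in the same direction), and 105 and 118 within 10 kb (79 and 53, where 20 of 29 overlapping resilient pairs had the same direction). Genes with both marks numbered 26 and 31 with enrichment above 1. Bins called numbered 21 and 40 with at least 3 sites of each mark, where fewer bins were tested. The cause of the other moves was not tested.

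Leaving out each library, the share in the same direction ran from 70.4% to 72.9% in susceptible and from 59.7% to 62.6% in resilient mice, the share where H3K27me1 was higher from 75.6% to 78.9% and from 73.0% to 75.8%, and where it was lower from 44.7% to 50.6% and from 61.4% to 64.7%. Pairs in the same direction ran from 17 to 25 and from 15 to 20, and bins called from 71 to 109 and from 121 to 167. All values with a library left out kept the sites as the authors called them with every library. They cannot show which sites would be called without it. Site calls over a table's own sites ran from 8790 to 11337 and from 0 to 1859 (H3K27me1 and H3K27me2, susceptible), and from 5862 to 6211 and from 3429 to 4516 (resilient). Over all windows they ran from 0 to 2 (2 without control library 25), 0 to 0, 0 to 0 and 0 to 6 (6 without control library 49). Of 480 alternative tests of the 24 named bins, 30 lost and 19 gained the call, and 3 turned the sign of a difference that was not called: chr11:3000001-4000000 in susceptible mice was 0.09, but -0.00023 with the mean over sites of log2, and ran from -0.056 (without control library 55) to 0.21 with each library left out, and chr10:58000001-59000000 in resilient mice was 0.15, but ran from -0.015 (without control library 55) to 0.27. Count-model alternatives (edgeR, TMM scaling, DESeq2) were not run, since the values used were already normalised. No paired analysis was possible because each library number belongs to 1 sample and the labels do not tie numbers of the 2 marks to the same mice.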
